A study of Mus musculus with 14 samples.

Results

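The paired myeloid immunoglobulin-like receptors are families of related cell-surface receptors in which some members inhibit and others activate the cell. Their genes were taken from the count table as every symbol that begins with Siglec, Lilr, Pira, Pirb or Cd300, or with Trem followed by a digit or the letter l, together with Sirpa. This gave 35 of 25239 symbols: 11 Pir and Lilr genes, 11 Cd300 genes, 6 Siglec genes, 6 Trem genes and Sirpa. The rule reads symbols alone, though it was set with earlier results of these data known. The filter on low counts was passed by 31 of the 35.

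The inhibitory members carry an immunoreceptor tyrosine-based inhibitory motif in the cytoplasmic tail. Once phosphorylated by Src family kinases, this motif recruits the phosphatases encoded by Ptpn6 and Ptpn11. The activating members have a short tail and signal through the adaptors encoded by Tyrobp or Fcer1g and the kinase Syk. On macrophages they read ligands such as MHC class I, sialic acids, lipids and CD47, and set how readily the cell engulfs or responds.

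RNA was sequenced from mouse bone marrow-derived macrophages, grown from marrow in medium with L929 cell supernatant. The KO cells came from mice with floxed Ezh2 alleles and a Cre under the lysozyme M promoter (Ezh2fl/fl;LysM-Cre+/-), which acts in myeloid cells. The WT cells came from their littermates, whose alleles the labels do not give. For 24 h, cells of each genotype received either the supernatant of the mouse liver cancer line Hepa1-6 as conditioned medium (CM) or complete DMEM (control medium). The groups were KO in CM (3 libraries), KO in control medium (3), WT in CM (4) and WT in control medium (4). There was no supernatant of a non-tumour line, so tumour products and conditioning as such cannot be told apart. Whether a group's libraries stem from different mice is not in the labels; the p-values reflect the spread of these samples, which could be technical.

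The libraries held 40.2 M to 85.8 M exon counts (M, 1e6). WT libraries 3 and 4 of both media stood apart: they were the deepest, at 80.4 M to 85.8 M against 40.2 M to 61.5 M in the other 10, and their deviations from the group means ran against those of WT libraries 1 and 2 (r from -0.43 to -0.35). The labels name no batch. The KO against WT calls named here are therefore also given against WT libraries 1 and 2 alone, a choice made with the data known. KO was not compared with WT libraries 3 and 4 alone, and the labels tie KO to neither pair. In Ezh2, 2 exons of 81 and 85 bases, picked after their values were seen, had per base 7.22 to 19.3% of the counts of the other exons in KO in CM, 2.07 to 31.7% in KO in control medium, 94.0 to 143.2% in WT in CM and 102.9 to 169.5% in WT in control medium. KO and WT libraries did not overlap. Over all its exons, Ezh2 was lower in KO by 0.40 ± 0.10 on the log2 scale in CM (edgeR adjusted p = 0.0334), while the difference in control medium was -0.31 ± 0.10 (edgeR adjusted p = 0.0761). With WT libraries 1 and 2 as the only WT ones, the Ezh2 call in CM was lost (-0.34, edgeR adjusted p = 0.0536), and the control medium value was -0.15 (edgeR adjusted p = 0.439). Macrophage markers were abundant in all groups; Csf1r, the receptor for the growth factor these cells are raised in, averaged 3415.0 CPM in KO in CM, 5077.0 CPM in KO in control medium, 3638.9 CPM in WT in CM and 4984.4 CPM in WT in control medium. CPM are counts per 1e6 of the TMM-scaled library total. Lyz2, whose locus carries the Cre, averaged 9478.0 and 10221.1 CPM in KO in CM and in control medium, against 20458.0 and 21890.6 CPM in WT. Hepatoma cell markers summed to 1.61 to 3.03 CPM over the 14 libraries.

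Several of these genes are near-identical copies, and the table assigned the same counts to more than 1 of them. Cd300ld4 and Cd300ld5 shared all 8 exon entries, with the same length and counts in every library, so they are 1 measurement under 2 symbols. Pira4 and Pira7 shared 8 of their 10 exon entries, which held 89.5% of the Pira4 counts. The entries Pira2 shared with Pira4 held 47.6% of the Pira2 counts and 74.6% of the Pira4 counts. Those Pira11 shared with Pira6 held 76.4% of the Pira11 counts and 71.4% of the Pira6 counts. Pira1 and Pirb shared no entry with another member. Distinct entries can still hold reads that fit several copies. Over their local alignment, GENCODE transcripts of Lilr4b and Lilrb4a were 96.3% identical, and those of Cd300ld3 and Cd300ld5 98.9%. Among the compared pairs of members, the transcripts of Pira2 and Pirb came next in identity after Lilr4b and Lilrb4a. How reads with several matches were counted is not given in the sources used here. The separate Pira, Pirb, Lilr4b, Lilrb4a and Cd300ld3 to Cd300ld5 values are therefore uncertain as values of single genes.

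**Figure D1:**
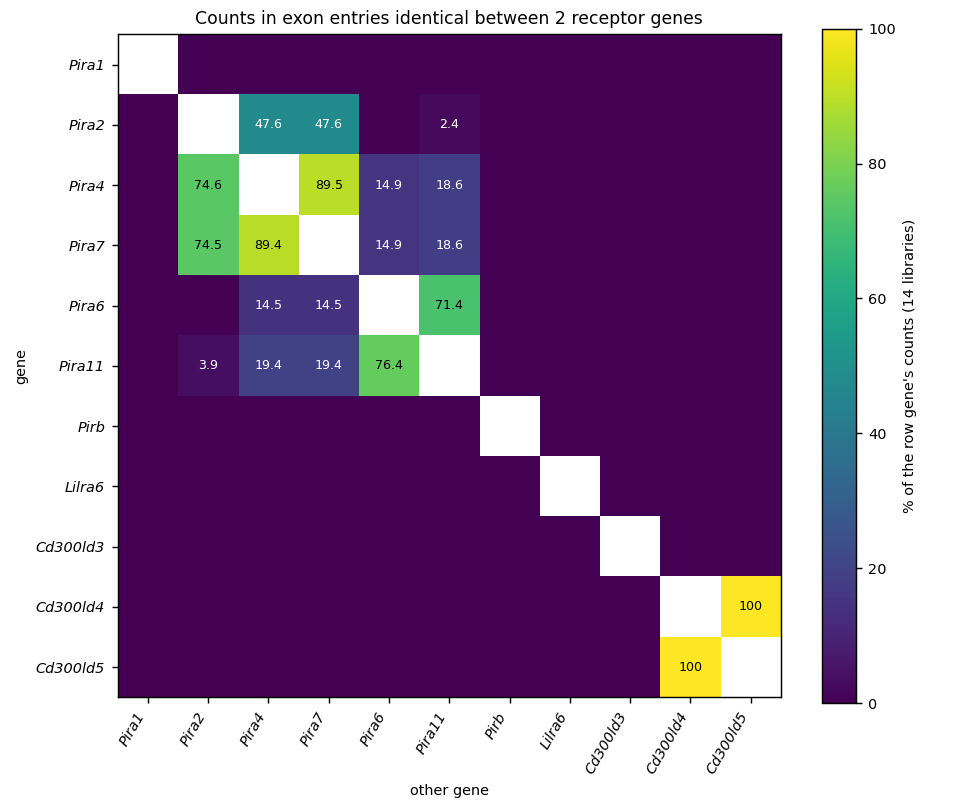
Share of each gene's counts (row, in % over 14 libraries) that lies in exon entries with the same length and counts in another gene (column), for 11 Pira, Pirb, Lilra6 and Cd300ld genes; white squares mark a gene with itself. Cd300ld4 and Cd300ld5 share 100%, Pira4 and Pira7 89.5% and 89.4%, while the rows of Pira1, Pirb, Lilra6 and Cd300ld3 hold 0.

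The likeness extends to the bases before an annotated start. Below are the 250 bases before the start that the RefSeq promoter table gives for genes on which the results turn (RefSeq, GRCm38.p6, all on the minus strand, 5′ to 3′). They are shown because an inhibitory and an activating gene, Pirb and Pira1, have nearly the same sequence there, and because Cd300lf moved against its Cd300 neighbours. Capitals mark GAGGAA, the core bound by the myeloid factor PU.1, or its complement TTCCTC. The windows are chr7:3720383-3720632 for Pirb, chr7:3739918-3740167 for Pira1, chr11:115048331-115048580 for Cd300ld3, chr11:115026934-115027183 for Cd300ld4 and chr11:115133993-115134242 for Cd300lf. Such a start need not be the outermost one of the gene: the Cd300lf window lies wholly inside the span of the gene's exons, 26 bases of the Pira1 window, 89 of the Cd300ld3 window and 137 of the Cd300ld4 window lie inside theirs, and the Pirb window lies outside.
Pirb: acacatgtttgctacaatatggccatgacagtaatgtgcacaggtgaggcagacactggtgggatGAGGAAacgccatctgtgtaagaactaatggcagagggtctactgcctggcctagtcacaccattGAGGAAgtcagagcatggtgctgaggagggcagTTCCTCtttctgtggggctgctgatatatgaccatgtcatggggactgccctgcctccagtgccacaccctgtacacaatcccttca
Pira1: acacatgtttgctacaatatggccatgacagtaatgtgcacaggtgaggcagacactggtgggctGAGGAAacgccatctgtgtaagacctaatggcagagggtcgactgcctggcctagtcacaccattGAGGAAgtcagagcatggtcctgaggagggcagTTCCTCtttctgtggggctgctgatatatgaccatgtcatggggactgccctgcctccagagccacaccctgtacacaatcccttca
Cd300ld3: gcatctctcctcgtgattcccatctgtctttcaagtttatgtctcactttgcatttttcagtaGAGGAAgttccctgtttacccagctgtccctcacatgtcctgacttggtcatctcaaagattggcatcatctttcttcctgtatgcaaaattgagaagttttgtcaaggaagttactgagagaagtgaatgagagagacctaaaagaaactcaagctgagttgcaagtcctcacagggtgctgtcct
Cd300ld4: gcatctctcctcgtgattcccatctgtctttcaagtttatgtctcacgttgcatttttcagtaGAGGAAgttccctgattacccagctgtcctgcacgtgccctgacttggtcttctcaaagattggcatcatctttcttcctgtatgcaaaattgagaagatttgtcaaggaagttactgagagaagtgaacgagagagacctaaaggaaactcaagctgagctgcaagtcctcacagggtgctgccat
Cd300lf: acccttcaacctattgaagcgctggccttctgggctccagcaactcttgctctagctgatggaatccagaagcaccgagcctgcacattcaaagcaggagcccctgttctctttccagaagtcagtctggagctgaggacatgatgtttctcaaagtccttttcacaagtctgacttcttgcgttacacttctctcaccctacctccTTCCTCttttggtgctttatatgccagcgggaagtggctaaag
Pirb and Pira1 were identical at 245 of 250 positions, and each window held the core at 3 places. Cd300ld3 and Cd300ld4 were identical at 237 of 250, and the Cd300ld5 window was identical to that of Cd300ld4 at all 250. Of the 35 genes, 24 had such a window in the RefSeq table (5 wholly and 11 partly inside the gene's span, 8 outside), and 18 of these 24 (75.0%) held GAGGAA on either strand, against 23.3% of 32851 windows of the same length. The C/EBP letters TTGCNNAA were in 3 of 24 (9.56% of all windows), the STAT letters TTCNNNGAA in 5 (7.02%) and the AP-1 letters TGANTCA in 1 (6.75%), each on both strands. The same bases can match more than 1 of these motifs, as TTCNNNGAA can overlap TTCCTC, and near-identical windows were counted separately. A match is a description of sequence only.

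Per kilobase of exon, the most abundant members in WT in control medium were Trem2, a lipid-binding activating receptor that pairs with the Tyrobp product, at 653.0 ± 101.9 CPM per kb (SD, n = 4), and Pirb, the inhibitory receptor for MHC class I, at 487.2 ± 65.2. Sirpa, the inhibitory receptor for CD47, followed at 467.0 ± 50.8, and Lilrb4a, an inhibitory receptor also known as gp49B, at 420.1 ± 21.2. Trem2 exceeded Pirb by more than either SD, while Pirb and Sirpa each differed from the next by less than the larger SD. In KO in control medium Trem2 led at 824.1 ± 49.7 CPM per kb (n = 3), beyond the spread of Pirb at 481.4 ± 13.9. In CM the order changed: Pirb came first, at 671.7 ± 5.07 CPM per kb in KO and 632.8 ± 64.3 in WT, then Lilrb4a at 604.4 ± 21.1 in KO and 570.9 ± 11.7 in WT, then Trem2 at 589.5 ± 36.6 in KO and 522.7 ± 53.2 in WT. In WT these neighbours differed by less than the larger SD, as did Lilrb4a and Trem2 in KO, whereas Pirb exceeded Lilrb4a in KO by more. At the low end, Lilra5, Siglecg, Siglec15 and Trem3 did not pass the filter, with 92, 42, 71 and 7 counts in all 14 libraries together.

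Conditioned medium changed most of these receptors, in both directions. In WT cells 28 of 31 tested members passed the threshold, 15 higher and 13 lower in CM, where 37.3% of all 13311 tested genes passed (edgeR adjusted p below 0.05). In KO cells 26 of 31 passed, 14 higher and 12 lower, against 38.1% of all tested genes. The 26 members called in both genotypes moved the same way in each. The median log2 change of the tested members was 0.35 in KO and 0.17 in WT, beside -0.01 for all tested genes in either. Because copies share counts, these members are not independent; without Cd300ld5 the counts were 25 of 30 in KO and 27 of 30 in WT. With the Pira genes and Pirb merged and Cd300ld4 merged with Cd300ld5, 19 of 24 passed in KO and 21 of 24 in WT. The WT count was 20 of 31 when scaled by library totals alone and 20 within WT libraries 1 and 2. On the most-counted exon, where Siglech and Treml4 were not among the tested genes, the WT count was 19, against 21 in KO.

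By family, 9 of 10 tested Pir and Lilr genes were higher in CM and 0 lower in either genotype. Of the 11 Cd300 genes, 2 were higher in either genotype, while 8 were lower in KO and 9 in WT. The Siglec genes split evenly, 2 higher and 2 lower of 4 tested. Of the 5 tested Trem genes, 1 was higher and 1 lower in KO, and 2 higher and 1 lower in WT. Differences between families were not tested. The Pir and Lilr count rests on shared counts: with the Pira genes and Pirb as 1 feature, 3 of 4 features were higher in either genotype. In WT it also fell to 2 of 10 with library totals alone (Lilrb4a and Pirb) and to 4 of 10 within WT libraries 1 and 2 (Lilrb4a, Pirb, Pira1 and Pira2). Counts of 4 of 10 were also found in the fit of the compared groups alone and on the most-counted exon, while within WT libraries 3 and 4 the counts were 9 higher and 1 lower. Of the 8 tested members with an inhibitory motif, 4 were higher and 3 lower in each genotype. Of the 15 that pair with an activating adaptor, 6 were higher and 6 lower in KO, and 7 higher and 6 lower in WT. In these bulk samples fewer cells of a type and less RNA per cell cannot be told apart.

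**Figure D2:**
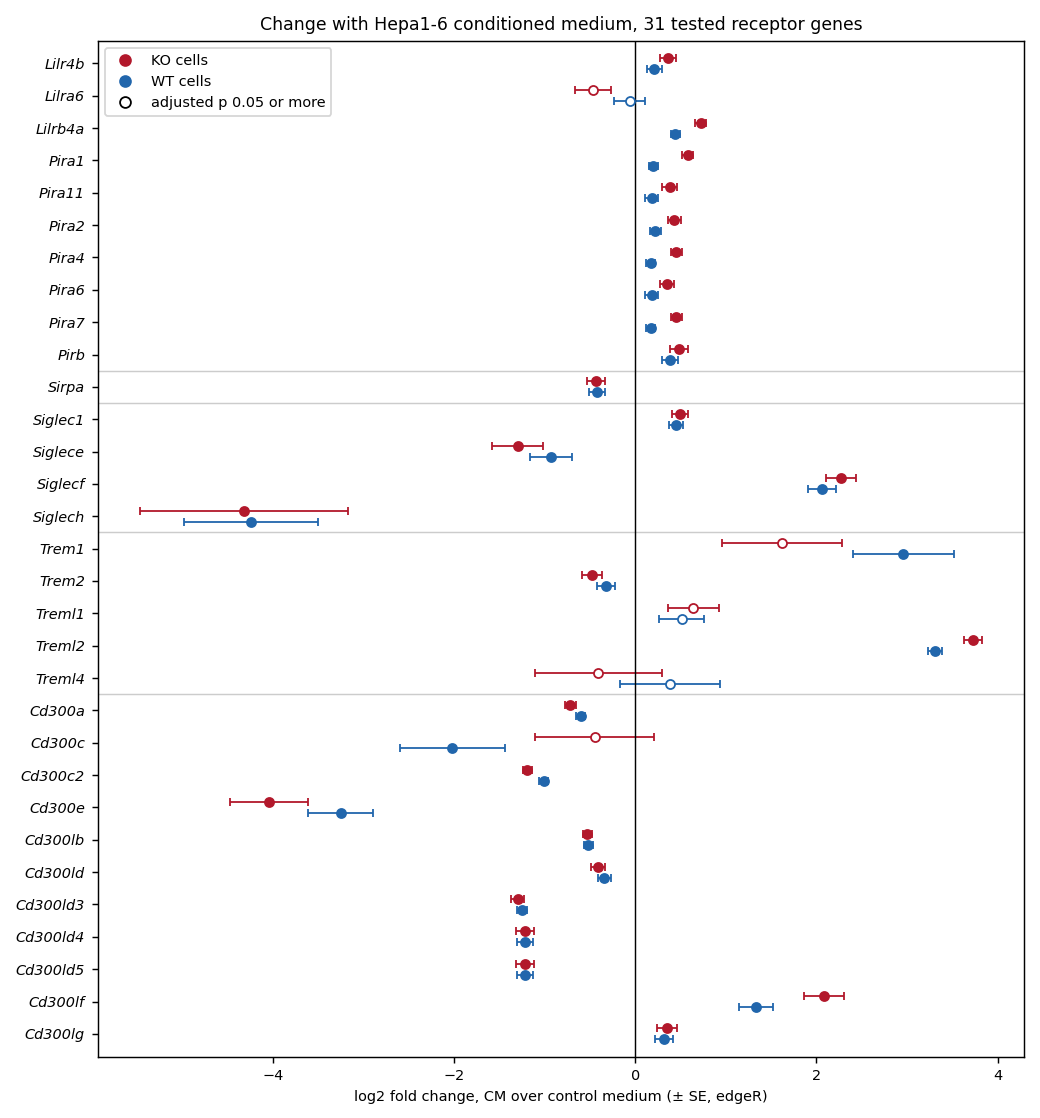
Log2 fold change of CM over control medium (x axis, points with SE) for the 31 tested receptor genes (y axis, grouped by family), in KO cells (red) and WT cells (blue); open points did not pass the threshold. Treml2 lies at 3.73 in KO and 3.31 in WT, 9 of 10 Pir and Lilr genes lie to the right of 0, and the Cd300 genes lie to the left except Cd300lf and Cd300lg.

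Treml2, a Trem-like receptor found on mouse macrophages, neutrophils and B cells, showed the largest called increase of the members in both genotypes. In KO cells it had 88.4, 93.4 and 85.6 CPM in CM, against 6.73, 7.4 and 5.91 CPM in control medium. In WT cells it had 103.2, 94.5, 101.6 and 99.9 CPM in CM, against 9.95, 11.4, 10.3 and 8.69 CPM in control medium. Every CM library was above every control library. The log2 change was 3.73 ± 0.10 in KO (edgeR adjusted p = 5.19e-13), a 13.3-fold difference, and 3.31 ± 0.08 in WT (edgeR adjusted p = 2.73e-13), 9.94-fold. All 6 exons of Treml2 were higher in CM without overlap in each genotype. The gene lies at chromosome 17, 48299390 to 48312534 (GRCm38.p6), in the Trem cluster.

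Trem2, in the same cluster, moved the other way. It lies on chromosome 17 from 48346401 to 48352276 and had 752.6, 760.6 and 840.8 CPM in KO in CM, against 1063.7, 1173.1 and 1054.0 CPM in KO in control medium. WT cells had 760.0, 747.1, 666.6 and 609.4 CPM in CM, against 944.6, 1021.7, 743.9 and 766.4 CPM in control medium. The KO groups did not overlap, while the WT groups did, with WT libraries 3 and 4 low in both media. Trem2 fell by 0.48 ± 0.11 in KO (edgeR adjusted p = 0.00319) and by 0.32 ± 0.10 in WT (edgeR adjusted p = 0.0175). The WT call was lost without WT CM library 4 (-0.27, adjusted p = 0.0573) and without WT control library 1 (-0.28, 0.053) or 2 (-0.23, 0.0605); in such pairs of numbers the first is the log2 change and the second the edgeR adjusted p. It held within WT libraries 1 and 2 (-0.39, edgeR adjusted p = 0.000305) and within 3 and 4 (-0.24, edgeR adjusted p = 0.0119). On the most-counted exon both calls were lost (-0.50 in KO, adjusted p = 0.0978, and -0.40 in WT, 0.133).

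Treml1, an inhibitory-motif receptor best known from platelets, had 7.91, 7.53 and 7.26 CPM in KO in CM, against 4.89, 5.47 and 4.19 CPM in KO in control medium. WT cells had 5.37, 7.55, 4.82 and 4.01 CPM in CM, against 5.41, 5.01, 2.42 and 2.58 CPM in control medium. The KO groups did not overlap, and the WT groups did, with libraries 3 and 4 low. The differences missed the threshold, at 0.64 ± 0.28 in KO (edgeR adjusted p = 0.0891) and 0.51 ± 0.25 in WT (edgeR adjusted p = 0.123). Blocking on the replicate number brought both past it, at 0.65 in KO (edgeR adjusted p = 0.00277) and 0.56 in WT (edgeR adjusted p = 0.00316). Megakaryocyte and platelet markers were low, at 2.08 to 2.74 CPM over 5 genes in KO in CM, 0.34 to 0.877 CPM in KO in control medium, 1.05 to 1.62 CPM in WT in CM and 0.333 to 0.486 CPM in WT in control medium, and their part in the Treml1 values was not tested. Trem1, an activating receptor that amplifies inflammation, held few counts: 30 in KO in CM, 10 in KO in control medium, 80 in WT in CM and 10 in WT in control medium. It passed in WT (2.96 ± 0.56, edgeR adjusted p = 0.000598; within WT libraries 1 and 2, 2.34, 0.0728) and missed in KO (1.62 ± 0.66, edgeR adjusted p = 0.0677; without KO control library 3, 2.45, 0.0263). Treml4 was under 1 CPM in nearly every library and missed the threshold, at -0.41 ± 0.70 in KO and 0.38 ± 0.55 in WT.

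**Figure D3:**
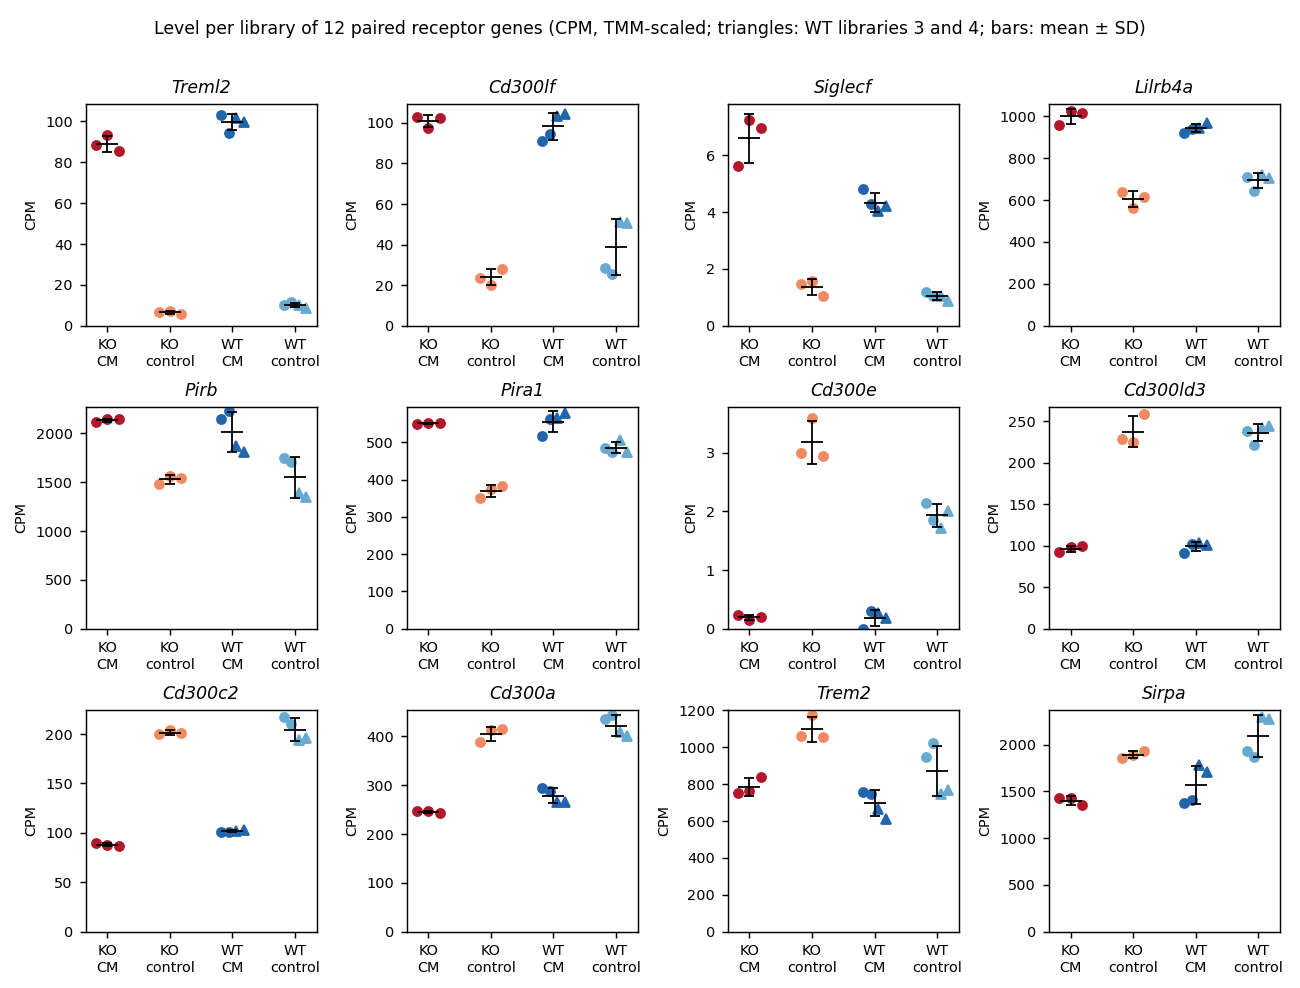
Level (y axis, CPM, linear from 0) of 12 receptor genes in each library of KO in CM, KO in control medium, WT in CM and WT in control medium (x axis), with the mean and SD as bars and WT libraries 3 and 4 as triangles. Treml2, Cd300lf, Siglecf, Lilrb4a and Pirb are higher in CM and Cd300e, Cd300ld3, Cd300c2 and Cd300a lower; Cd300lf in WT in control medium splits into 28.6 and 25.4 CPM in libraries 1 and 2 and 51.3 and 50.5 CPM in libraries 3 and 4.

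The Cd300 genes other than Cd300lg sit in a row on chromosome 11, from the Cd300a start at 114889152 to the Cd300lf end at 115135372 (GRCm38.p6). Along this stretch the genes called were lower in CM, except Cd300lf at its far end, whose lowest coordinate lies 227.1 kb from that of Cd300a. Cd300lf, an inhibitory-motif receptor that also serves murine norovirus as entry receptor, had 102.7, 97.3 and 102.4 CPM in KO in CM, against 23.7, 20.0 and 28.0 CPM in KO in control medium. WT cells had 91.1, 94.5, 103.5 and 104.4 CPM in CM, against 28.6, 25.4, 51.3 and 50.5 CPM in control medium. No CM library overlapped a control library of its genotype, and WT control libraries 3 and 4 were 1.89 times as high as 1 and 2. Cd300lf rose by 2.08 ± 0.22 in KO (edgeR adjusted p = 2.14e-06) and by 1.33 ± 0.19 in WT (edgeR adjusted p = 3.29e-05). Within WT libraries 1 and 2 the change was 1.78 (edgeR adjusted p = 2.44e-09) and within 3 and 4 it was 1.03 (edgeR adjusted p = 7.63e-07). On its most-counted exon alone the WT change was 0.55 and missed the threshold (edgeR adjusted p = 0.103).

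Cd300e, next to Cd300lf and known as an activating receptor of monocytes, showed the opposite. It had 0.228, 0.149 and 0.199 CPM in KO in CM, against 3.0, 3.6 and 2.94 CPM in KO in control medium. In WT cells it had 0, 0.302, 0.276 and 0.183 CPM in CM, against 2.15, 1.86, 1.71 and 2.01 CPM in control medium. The groups were far from overlapping, though the CM groups rest on 28 counts in KO and 50 in WT. Cd300e fell by 4.04 ± 0.43 in KO (edgeR adjusted p = 1.88e-06) and by 3.25 ± 0.36 in WT (edgeR adjusted p = 2.64e-06). Summed monocyte markers moved the other way: over 6 genes they came to 291.1 to 319.9 CPM in KO in CM, 53.0 to 60.8 CPM in KO in control medium, 214.1 to 277.7 CPM in WT in CM and 47.2 to 60.6 CPM in WT in control medium, while Ly6c2, which defines classical monocytes, stayed under 1 CPM in every group. Their part in any receptor's change was not tested.

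The Cd300ld copies fell together by more than 2-fold. Cd300ld3 had 92.5, 97.9 and 99.2 CPM in KO in CM, against 229.1, 225.0 and 258.7 CPM in KO in control medium, and 91.3, 102.2, 102.9 and 100.6 CPM in WT in CM, against 238.4, 221.2, 242.2 and 244.2 CPM in WT in control medium. The media did not overlap in either genotype. The changes were -1.30 ± 0.07 in KO (edgeR adjusted p = 7.47e-10) and -1.25 ± 0.06 in WT (edgeR adjusted p = 1.8e-10). Cd300ld4, whose counts are those of Cd300ld5, had 121.5 to 147.4 CPM in KO in CM, 282.0 to 326.8 CPM in KO in control medium, 114.0 to 144.4 CPM in WT in CM and 274.6 to 337.5 CPM in WT in control medium. It fell by 1.22 in both genotypes, with an SE of 0.10 in KO and 0.09 in WT (edgeR adjusted p = 1.4e-07 and 2.28e-08).

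Cd300c2, an activating receptor that pairs with the Fcer1g product, had 89.5, 88.1 and 87.0 CPM in KO in CM, against 199.9, 204.0 and 200.9 CPM in KO in control medium. WT cells had 101.2, 101.3, 101.9 and 102.9 CPM in CM, against 217.7, 210.7, 193.6 and 196.2 CPM in control medium. All CM libraries were far below all control libraries, with no overlap. The changes were -1.19 ± 0.05 in KO (edgeR adjusted p = 1.16e-10) and -1.01 ± 0.05 in WT (edgeR adjusted p = 1.17e-10). Cd300a, an inhibitory receptor for phosphatidylserine, had 242.9 to 247.2 CPM in KO in CM, 389.6 to 414.9 CPM in KO in control medium, 265.5 to 295.3 CPM in WT in CM and 401.4 to 443.9 CPM in WT in control medium. It fell by 0.72 ± 0.06 in KO (edgeR adjusted p = 1.13e-07) and by 0.60 ± 0.05 in WT (edgeR adjusted p = 1.55e-07).

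Cd300lb, an activating receptor that pairs with the Tyrobp product, fell by 0.53 ± 0.05 in KO and 0.52 ± 0.05 in WT (edgeR adjusted p = 1.25e-06 and 2.89e-07), with 172.6 to 183.1 CPM in KO in CM, 254.1 to 259.6 CPM in KO in control medium, 167.7 to 188.7 CPM in WT in CM and 252.0 to 269.7 CPM in WT in control medium. Cd300ld, another activating member, had 56.9 to 62.8 CPM in KO in CM, 72.4 to 84.0 CPM in KO in control medium, 62.1 to 74.5 CPM in WT in CM and 80.5 to 89.7 CPM in WT in control medium, and fell by 0.41 ± 0.08 in KO and 0.34 ± 0.07 in WT (edgeR adjusted p = 0.000686 and 0.000909). Inhibitory and activating genes of the stretch were lower together, and Cd300lf alone of its called genes was higher. Cd300c held under 2 CPM in every library. It passed in WT (-2.02 ± 0.58, edgeR adjusted p = 0.0123), missed in KO (-0.45 ± 0.66, edgeR adjusted p = 0.638), and its WT call was lost without WT control library 3 (-0.98, 0.0892) and within WT libraries 1 and 2 (-1.20, 0.193).

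**Figure D4:**
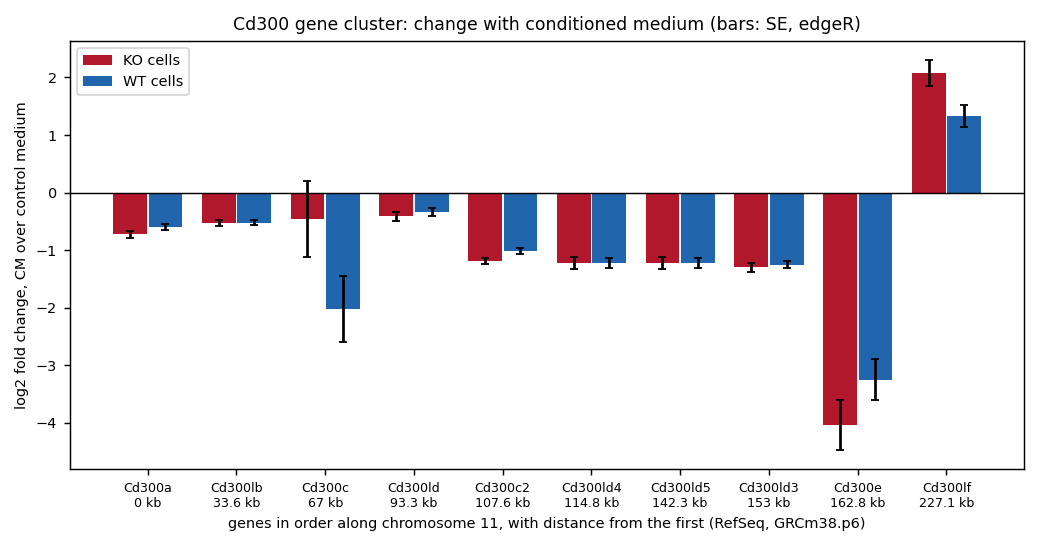
Log2 fold change of CM over control medium (y axis, bars with SE) for the 10 Cd300 genes in their order on chromosome 11 (x axis, with the distance in kb from the start of Cd300a), in KO cells (red) and WT cells (blue). The bars point down from Cd300a at 0 kb to Cd300e at 162.8 kb and up at Cd300lf at 227.1 kb; Cd300c in KO cells (-0.45) did not pass the threshold.

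Cd300lg, which lies apart on chromosome 11 from 102041511 to 102055617 and is known from endothelium, had 14.2, 16.4 and 18.4 CPM in KO in CM, against 11.5, 14.1 and 12.9 CPM in KO in control medium, and 14 to 14.9 CPM in WT in CM, against 10.1 to 13.1 CPM in WT in control medium. The groups did not overlap, by a narrow margin in KO. It passed at 0.35 ± 0.11 in KO (edgeR adjusted p = 0.0243) and 0.32 ± 0.10 in WT (edgeR adjusted p = 0.0204). The KO call was lost without KO CM library 2 (0.35, 0.0555) or 3 (0.25, 0.126) or KO control library 1 (0.28, 0.112) or 3 (0.36, 0.0556). The WT call was lost without WT CM library 3 (0.30, 0.0506) or WT control library 3 (0.29, 0.0562) or 4 (0.25, 0.0706), and within WT libraries 1 and 2 (0.16, 0.367). Both were lost on the most-counted exon (0.27 in KO, 0.13, and 0.24 in WT, 0.119) and when scaled by library totals (0.25, 0.101, and 0.23, 0.0749).

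The Pir and Lilr genes that passed the threshold moved the other way from most Cd300 genes. Lilrb4a, on chromosome 10 from 51490898 to 51496613, had 959.8, 1024.7 and 1014.6 CPM in KO in CM, against 639.6, 563.2 and 616.0 CPM in KO in control medium. WT cells had 922.6, 939.9, 945.3 and 969.4 CPM in CM, against 712.7, 642.6, 717.9 and 706.1 CPM in control medium. CM and control libraries did not overlap. Lilrb4a rose by 0.72 ± 0.06 in KO (edgeR adjusted p = 1.44e-07) and by 0.44 ± 0.05 in WT (edgeR adjusted p = 5.46e-06). On the most-counted exon alone the KO change was 0.50 and missed the threshold (edgeR adjusted p = 0.0643). Its neighbour Lilr4b, known as gp49A and without an inhibitory motif, had 580.0, 656.9 and 613.7 CPM in KO in CM, against 507.8, 432.7 and 500.4 CPM in KO in control medium, and 605.1 to 707.6 CPM in WT in CM, against 504.3 to 624.7 CPM in WT in control medium. It rose by 0.36 ± 0.09 in KO (edgeR adjusted p = 0.00387) and by 0.21 ± 0.08 in WT (edgeR adjusted p = 0.0367), with overlap in WT. Its WT call was lost without WT CM library 3 (0.19, 0.0893) or 4 (0.17, 0.105) and without WT control library 1 (0.21, 0.0693), 2 (0.16, 0.106) or 4 (0.23, 0.0512), and within WT libraries 1 and 2 (0.21, 0.0501). Library totals alone also ended it (0.13, 0.17), and the most-counted exon ended both calls (0.31 in each, 0.193 in KO and 0.143 in WT).

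Pirb, on chromosome 7 from 3712505 to 3720382, had 2116.2, 2145.8 and 2142.1 CPM in KO in CM, against 1481.3, 1568.1 and 1540.3 CPM in KO in control medium. WT cells had 2145.4, 2223.8, 1869.2 and 1806.2 CPM in CM, against 1746.1, 1707.4, 1389.2 and 1351.0 CPM in control medium. No CM library overlapped a control library of its genotype, and WT libraries 3 and 4 were the lower ones in each medium. Pirb rose by 0.48 ± 0.10 in KO (edgeR adjusted p = 0.00115) and by 0.38 ± 0.09 in WT (edgeR adjusted p = 0.00245). All 17 of its exons had a higher mean in CM in both genotypes.

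The Pira genes encode the activating partners of Pirb, which signal through the Fcer1g product. Pira1, on chromosome 7 from 3731626 to 3739943, had 549.3, 551.1 and 551.6 CPM in KO in CM, against 351.0, 374.4 and 383.4 CPM in KO in control medium. WT cells had 516.0, 563.2, 565.5 and 577.5 CPM in CM, against 485.0, 474.6, 506.0 and 474.5 CPM in control medium. The media did not overlap in either genotype, though in WT the nearest values were 516.0 CPM in CM and 506.0 CPM in control medium. Pira1 rose by 0.58 ± 0.06 in KO (edgeR adjusted p = 7.42e-07) and by 0.20 ± 0.05 in WT (edgeR adjusted p = 0.00443). Pira2 had 642.8, 646.0 and 627.4 CPM in KO in CM, against 449.5, 488.8 and 483.5 CPM in KO in control medium, and 613.7 to 707.4 CPM in WT in CM, against 525.1 to 612.6 CPM in WT in control medium. It rose by 0.43 ± 0.07 in KO (edgeR adjusted p = 0.000108) and by 0.22 ± 0.06 in WT (edgeR adjusted p = 0.00718).

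Pira4 had 397.8 to 425.0 CPM in KO in CM, 283.0 to 314.8 CPM in KO in control medium, 397.9 to 421.1 CPM in WT in CM and 332.9 to 393.9 CPM in WT in control medium, without overlap between media. Pira4 and Pira7, nearly the same counts, rose by 0.45 ± 0.06 in KO (edgeR adjusted p = 3.52e-05 and 3.41e-05) and by 0.17 ± 0.05 in WT (edgeR adjusted p = 0.0223 and 0.0219). Their WT calls were lost without WT CM library 3 (0.15 for either, adjusted p = 0.0713 for Pira4 and 0.0702 for Pira7) or WT control library 3 (0.13 for either, 0.0753 and 0.0738), and that of Pira4 without WT CM library 2 (0.17, 0.051). Pira6 had 396.4 to 440.9 CPM in KO in CM, 312.3 to 337.7 CPM in KO in control medium, 400.8 to 450.4 CPM in WT in CM and 333.6 to 401.2 CPM in WT in control medium, with overlap in WT. Pira6 and Pira11 rose by 0.35 ± 0.08 and 0.38 ± 0.08 in KO (edgeR adjusted p = 0.0017 and 0.00119) and by 0.18 ± 0.07 each in WT (edgeR adjusted p = 0.0437 and 0.0453). Their exons were split in WT. By mean, 5 exons were higher and 5 lower in CM for Pira4 and for Pira7, 13 and 10 for Pira6, and 4 and 6 for Pira11. In KO, 9 were higher and 1 lower for Pira4, Pira7 and Pira11, and 15 and 8 for Pira6. The WT call of Pira11 held without KO CM library 1 or WT control library 1 or 2 and was lost without any of the other 11 libraries (adjusted p from 0.0501 to 0.14). That of Pira6 was lost without any of 10 libraries (0.0506 to 0.138). The WT calls of Pira1, Pira2, Pira4, Pira6, Pira7 and Pira11 were also lost when counts were scaled by library totals alone (log2 changes 0.09 for Pira4 to 0.14 for Pira2), a scaling under which the median of all tested genes was -0.088. Within WT libraries 1 and 2 the calls of Pira4 (0.09, 0.297), Pira6 (0.10, 0.248), Pira7 (0.09, 0.295) and Pira11 (0.11, 0.252) were lost, and on the most-counted exon those of Pira1 (0.24, 0.0703), Pira2 (0.04, 0.617) and Pira4 and Pira7 (0.32 for either, 0.057).

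With all Pira genes and Pirb merged into 1 feature, it was higher in CM by 0.46 ± 0.07 in KO (edgeR adjusted p = 6.48e-05) and by 0.28 ± 0.06 in WT (edgeR adjusted p = 0.00147). Lilra6 missed the threshold, at -0.47 ± 0.20 in KO and -0.06 ± 0.17 in WT (edgeR adjusted p = 0.0728 and 0.825). Blocking on the replicate number brought its KO change past the threshold (-0.48, edgeR adjusted p = 0.00827), as did DESeq2 (-0.47, adjusted p = 0.0419), library totals alone (-0.58, edgeR adjusted p = 0.0308) and the inferred batch as a term (-0.47, edgeR adjusted p = 0.0121). On its most-counted exon Lilra6 gave -0.26 in KO (edgeR adjusted p = 0.718). In WT its sign differed between libraries: 0.24 within libraries 1 and 2 (edgeR adjusted p = 0.22) and -0.44 within 3 and 4 (edgeR adjusted p = 0.00673).

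Among the Siglec receptors, which bind sialic acids, Siglecf rose most. Siglecf, an inhibitory receptor known from eosinophils and alveolar macrophages, had 5.61, 7.23 and 6.96 CPM in KO in CM, against 1.47, 1.56 and 1.04 CPM in KO in control medium. WT cells had 4.81, 4.27, 4.03 and 4.2 CPM in CM, against 1.19, 1.06, 1.04 and 0.881 CPM in control medium. CM libraries were all above control libraries. The changes were 2.27 ± 0.17 in KO (edgeR adjusted p = 3.55e-08) and 2.06 ± 0.15 in WT (edgeR adjusted p = 2.08e-08), and all 8 exons with enough counts were higher without overlap in each genotype. Summed eosinophil markers were lower in CM, at 1.13 to 1.32 CPM in KO in CM, 3.44 to 4.73 CPM in KO in control medium, 0.953 to 1.22 CPM in WT in CM and 3.62 to 4.67 CPM in WT in control medium. Nearly all of these counts were Ccr3, and Epx, which defines eosinophils, had 3 counts in all 14 libraries together.

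Siglec1, or sialoadhesin, a macrophage receptor without an inhibitory motif, had 434.7, 387.3 and 408.6 CPM in KO in CM, against 307.4, 313.6 and 255.9 CPM in KO in control medium. WT cells had 347.5 to 373.8 CPM in CM, against 234.0 to 296.1 CPM in control medium. The media did not overlap. Siglec1 rose by 0.49 ± 0.09 in KO (edgeR adjusted p = 0.000704) and by 0.45 ± 0.08 in WT (edgeR adjusted p = 0.000386). Siglece, an inhibitory Siglec of myeloid cells, fell by 1.30 ± 0.28 in KO (edgeR adjusted p = 0.00194) and by 0.93 ± 0.23 in WT (edgeR adjusted p = 0.00428), with 0.533 to 0.631 CPM in KO in CM, 1.22 to 1.76 CPM in KO in control medium, 0.668 to 1.39 CPM in WT in CM and 1.39 to 2.34 CPM in WT in control medium. The KO in CM values rest on 88 counts. The media did not overlap, although in WT the nearest libraries both round to 1.39 CPM. Siglech, known from plasmacytoid dendritic cells, held 1 count in KO in CM against 27 in KO in control medium, and 4 in WT in CM against 92 in WT in control medium. The ratio of control medium to CM was 25.4 in KO (95% exact interval 4.18 to 1038, counting error only) and 21.3 in WT (8.06 to 79.98). It passed the test in both genotypes (edgeR adjusted p = 0.0075 in KO and 0.000283 in WT). Markers of plasmacytoid dendritic cells summed to at most 0.738 CPM in any library.

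Sirpa, on chromosome 2 from 129591042 to 129632228, had 1430.4, 1425.4 and 1350.6 CPM in KO in CM, against 1853.0, 1893.6 and 1928.2 CPM in KO in control medium. WT cells had 1375.4, 1404.4, 1784.5 and 1703.0 CPM in CM, against 1928.5, 1864.8, 2298.1 and 2277.1 CPM in control medium. The media did not overlap within a genotype, and WT libraries 3 and 4 were the higher ones. Sirpa fell by 0.43 ± 0.10 in KO (edgeR adjusted p = 0.00301) and by 0.42 ± 0.09 in WT (edgeR adjusted p = 0.00131).

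For the genes through which these receptors signal, the counts below are to be read against the 38.1% of all tested genes called in KO and 37.3% in WT, and a share near these is no result about a list. Of 25 adaptors, activating kinases and effectors, 4 were higher and 7 lower in CM in KO, and 4 higher and 10 lower in WT, with a median of -0.10 in each. Pik3ap1, an adaptor of phosphoinositide 3-kinase, fell by 1.34 ± 0.06 in KO and 1.30 ± 0.05 in WT (edgeR adjusted p = 9.06e-11 and 1.97e-11). Pik3cg, a catalytic subunit of that kinase, fell by 0.86 ± 0.06 in KO and 1.03 ± 0.05 in WT (edgeR adjusted p = 8.59e-09 and 1.83e-10). Fgr, a Src family kinase, rose by 1.15 ± 0.10 in KO and 1.17 ± 0.09 in WT (edgeR adjusted p = 3.34e-07 and 3.92e-08), and Card9, an adaptor downstream of Syk, by 0.52 ± 0.07 and 0.61 ± 0.06 (edgeR adjusted p = 1.2e-05 and 3.72e-07). Of 11 tested phosphatases and negative regulators, 2 were higher and 4 lower in KO, and 1 higher and 4 lower in WT. Ptpn22, a tyrosine phosphatase, fell by 1.04 ± 0.09 in KO and 1.07 ± 0.08 in WT (edgeR adjusted p = 1.77e-07 and 2.24e-08), and Inpp5d, the lipid phosphatase SHIP, by 0.49 ± 0.05 and 0.53 ± 0.04 (edgeR adjusted p = 8.52e-07 and 7.2e-08). Dok2, an adaptor that dampens tyrosine kinase signals, rose by 0.58 ± 0.09 in KO and 0.50 ± 0.07 in WT, while the related Dok3 fell by 0.38 ± 0.08 and 0.36 ± 0.07 (edgeR adjusted p from 5.1e-05 to 0.00162).

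Against the same shares of 38.1% in KO and 37.3% in WT, of 9 tested ligands and sheddases, 3 were higher and 4 lower in KO, and 3 higher and 3 lower in WT. Apoe, a lipoprotein that binds TREM2, fell by 0.95 ± 0.11 in KO and 0.79 ± 0.10 in WT (edgeR adjusted p = 6.89e-06 and 8.89e-06). The sheddases that cut TREM2 differed in direction: Adam10 rose by 0.49 in each (edgeR adjusted p = 1.49e-05 in KO and 3.35e-06 in WT), and Adam17 fell by 0.34 ± 0.06 in KO and 0.37 ± 0.05 in WT (edgeR adjusted p = 0.000275 and 2.87e-05). Spn, a sialylated ligand of Siglec1, rose by 0.75 ± 0.09 in KO and 0.61 ± 0.08 in WT (edgeR adjusted p = 5.5e-06 and 9.95e-06). Of 17 genes of sialic acid synthesis, transfer and removal, 4 were higher and 4 lower in each genotype. St3gal4, a sialyltransferase, rose by 0.81 ± 0.10 in KO and 0.93 ± 0.08 in WT, and Neu1, a sialidase, by 0.48 ± 0.07 and 0.50 ± 0.06 (edgeR adjusted p from 2.37e-07 to 3.65e-05). The transferases St8sia4 (-0.83 ± 0.11 in KO and -0.76 ± 0.09 in WT) and St3gal1 (-0.34 ± 0.06 and -0.41 ± 0.06) fell (edgeR adjusted p from 8.61e-06 to 0.000659).

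Few of these receptors differed between KO and WT, and by small steps. In CM, 2 of 31 tested members differed between KO and WT, Siglecf higher and Cd300c2 lower, where 4.59% of all tested genes passed (3.1% higher and 1.49% lower). In control medium, 5 of 31 were lower in KO and 0 higher, where 5.32% of all tested genes passed (2.82% higher and 2.5% lower). These 5 were Treml2, Pira1, Pira2, Pira4 and Pira7, of which Pira2, Pira4 and Pira7 share counts as described. At an unadjusted p below 0.05, 7 members differed in CM and 13 in control medium, beside 3110 and 3403 of all 13311 tested genes. These comparisons use the same libraries as those of the medium above.

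**Figure D5:**
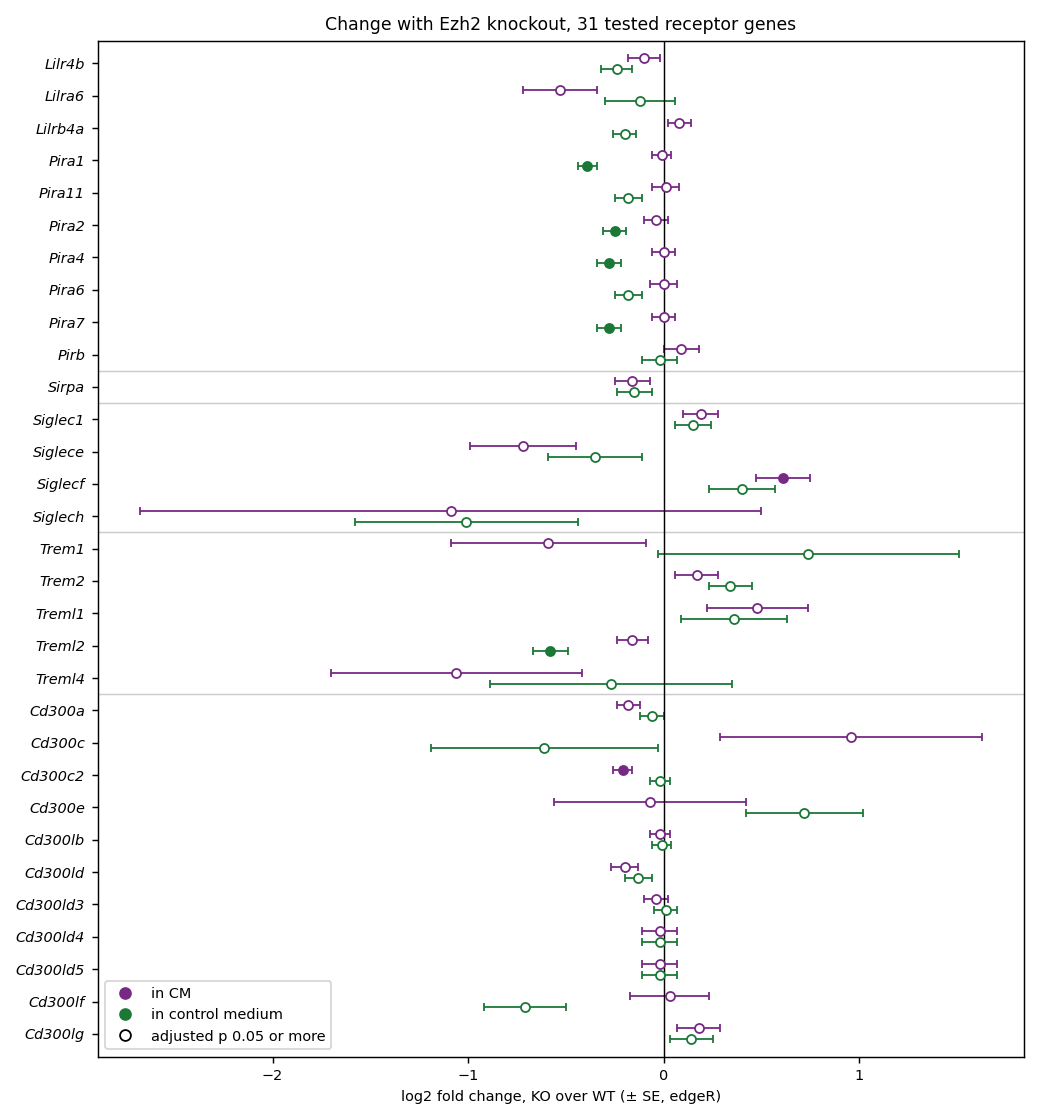
Log2 fold change of KO over WT (x axis, points with SE) for the 31 tested receptor genes (y axis, grouped by family), in CM (purple) and in control medium (green); open points did not pass the threshold. In control medium 4 Pira genes (-0.39 to -0.25) and Treml2 (-0.58) passed, and in CM Siglecf (0.61) and Cd300c2 (-0.21).

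In control medium Pira1 was the member with the smallest p. Its values given above show the 3 KO libraries at 351.0 to 383.4 CPM, all below the 4 WT libraries at 474.5 to 506.0 CPM. The difference was -0.39 ± 0.05 (edgeR adjusted p = 0.000721), and it was -0.37 against WT libraries 1 and 2 alone (edgeR adjusted p = 0.000786). It held without any 1 of the 14 libraries, but on the most-counted exon alone it was -0.32 and missed the threshold (edgeR adjusted p = 0.115). In CM Pira1 had 549.3 to 551.6 CPM in KO and 516.0 to 577.5 CPM in WT, a difference of -0.01 ± 0.05 (edgeR adjusted p = 0.905).

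Pira2 had 449.5, 488.8 and 483.5 CPM in KO in control medium, against 571.6, 612.6, 525.1 and 545.3 CPM in WT in control medium. Pira4 had 296.6, 314.8 and 283.0 CPM in KO, against 361.7, 393.9, 332.9 and 361.9 CPM in WT. KO and WT libraries did not overlap for either. Pira2 fell by 0.25 ± 0.06 (edgeR adjusted p = 0.0355), or by 0.32 against WT libraries 1 and 2 (edgeR adjusted p = 0.00242), and Pira4 by 0.28 ± 0.06 (edgeR adjusted p = 0.0147), or by 0.34 (edgeR adjusted p = 0.00339). Pira7 gave -0.28 ± 0.06 (edgeR adjusted p = 0.0144), or -0.34 with those 2 WT libraries (edgeR adjusted p = 0.0034). The Pira2 call was lost without KO CM library 1 (-0.24, 0.0542) or 2 (-0.25, 0.0502), KO control library 1 (-0.21, 0.137), 2 (-0.27, 0.0896) or 3 (-0.27, 0.0897), or WT control library 1 (-0.24, 0.0562) or 4 (-0.27, 0.0594). The Pira4 and Pira7 calls were lost without KO control library 1 (-0.28 for either, 0.0619 for Pira4 and 0.0602 for Pira7) or 3 (-0.25 for either, 0.0817 and 0.079), and on the most-counted exon (-0.08, 0.743). Merged with Pirb, the Pira genes gave -0.15 ± 0.06 (edgeR adjusted p = 0.155). Pirb itself gave -0.02 ± 0.09 (edgeR adjusted p = 0.922). With WT libraries 1 and 2 as the only WT ones, Pirb passed (-0.17, edgeR adjusted p = 0.0345), as did Pira6 (-0.28, 0.0144) and Pira11 (-0.29, 0.0143). WT control libraries 3 and 4 averaged 1370.1 CPM of Pirb, below the mean of 1529.9 CPM in KO in control medium. They averaged 342.7 CPM of Pira6 and 318.2 CPM of Pira11, against 328.4 and 304.3 CPM in KO in control medium. KO against WT libraries 3 and 4 alone was not tested. Library totals alone ended the Pira2 call (-0.20, 0.0863).

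Treml2 in control medium was at 5.91 to 7.4 CPM in KO, below all WT libraries at 8.69 to 11.4 CPM. It fell by 0.58 ± 0.09 (edgeR adjusted p = 0.00244) and by 0.67 against WT libraries 1 and 2 (edgeR adjusted p = 0.000936), and the call held without any 1 of the 14 libraries. In CM the Treml2 difference was -0.16 ± 0.08 (edgeR adjusted p = 0.238). For Cd300lf the control medium difference of -0.71 ± 0.21 missed the threshold (edgeR adjusted p = 0.0563), and against WT libraries 1 and 2 it was -0.17 (edgeR adjusted p = 0.398). Blocking on the replicate number let it pass (-0.59, edgeR adjusted p = 0.0424), as did the fits without WT control library 1 (-0.83, 0.0313) or 2 (-0.87, 0.00968). That block matches libraries of the same number across genotypes, whose deviations gave r from -0.1 to 0.12 in the same medium. Trem2 was higher in KO in all control libraries, by 0.34 ± 0.11, and missed the threshold (edgeR adjusted p = 0.0729); against WT libraries 1 and 2 the difference was 0.16 (edgeR adjusted p = 0.176), and without WT control library 2 it was 0.42 and passed (0.0183). Lilrb4a gave -0.20 ± 0.06 (edgeR adjusted p = 0.055), and -0.16 against WT libraries 1 and 2 (edgeR adjusted p = 0.168). It passed without WT control library 2 (-0.23, 0.0182), whose Lilrb4a value lay apart from the other WT control libraries. Cd300e was higher in all KO control libraries, at 2.94 to 3.6 CPM against 1.71 to 2.15 CPM in WT. Its difference of 0.72 ± 0.30 missed the threshold (edgeR adjusted p = 0.157), and against WT libraries 1 and 2 it was 0.67 (edgeR adjusted p = 0.312). DESeq2 called Cd300e (0.72, adjusted p = 0.0122) and Trem2 (0.33, adjusted p = 0.0308) higher in KO, while its other member calls in control medium were lower.

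In CM, the 3 KO libraries had 5.61 to 7.23 CPM of Siglecf and the 4 WT libraries 4.03 to 4.81 CPM, with no overlap. The difference was 0.61 ± 0.14 (edgeR adjusted p = 0.0248). It was 0.57 when blocked on the replicate number across genotypes (edgeR adjusted p = 0.0504) and 0.55 against WT libraries 1 and 2 alone (edgeR adjusted p = 0.113). The call was lost without KO CM library 2 (0.54, 0.0915) or 3 (0.57, 0.118) or WT CM library 3 (0.58, 0.0806) or 4 (0.60, 0.0738), and on the most-counted exon (0.43, 0.273). Cd300c2 was at 87.0 to 89.5 CPM in KO and 101.2 to 102.9 CPM in WT, again with no overlap, and fell by 0.21 ± 0.05 (edgeR adjusted p = 0.0258). Against WT libraries 1 and 2 it was -0.19 (edgeR adjusted p = 0.0345). The Cd300c2 call was lost without KO CM library 1 (-0.21, 0.0723), 2 (-0.20, 0.0794) or 3 (-0.20, 0.108) or WT CM library 3 (-0.21, 0.0702) or 4 (-0.20, 0.0798). Cd300a gave -0.18 ± 0.06 in CM (edgeR adjusted p = 0.0765), with no overlap. It was past the threshold when blocked on the replicate number across genotypes (-0.20, edgeR adjusted p = 0.0354) and against WT libraries 1 and 2 (-0.24, edgeR adjusted p = 0.0117). Lilra6 gave -0.53 ± 0.19 (edgeR adjusted p = 0.115) and was past the threshold against WT libraries 1 and 2 (-0.85, 0.00192). It also passed by DESeq2 (-0.53, adjusted p = 0.0443) and with the inferred batch as a term (-0.69, edgeR adjusted p = 0.00862). WT CM library 1 had 68.8 CPM of Lilra6, against 32.9 to 49.3 CPM in the other WT CM libraries. On its most-counted exon the difference had the other sign and missed the threshold (0.48, edgeR adjusted p = 0.545).

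Whether the medium acted differently in KO and WT was tested as an interaction. No member passed, and 0.0% of all tested genes did by edgeR (0 of 13311), with 8 members and 1050 genes at an unadjusted p below 0.05; DESeq2 called 84 genes, among them 1 member, Pira1. Pira1 had the smallest p of the members: its rise with CM was larger in KO by 0.38 ± 0.07 (edgeR adjusted p = 0.148). It was past the threshold when blocked on the replicate number (0.38, edgeR adjusted p = 0.0065), a fit that called 205 genes, and in DESeq2 (0.38, adjusted p = 0.000223), and missed within WT libraries 1 and 2 (0.41, edgeR adjusted p = 0.0544). Lilrb4a gave 0.28 ± 0.08 (edgeR adjusted p = 0.363), Treml2 0.42 ± 0.12 (edgeR adjusted p = 0.372) and Cd300lf 0.74 ± 0.28 (edgeR adjusted p = 0.509).

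Among the partner genes, Fgr was lower in KO in CM (-0.36 ± 0.09, edgeR adjusted p = 0.041), at 25.3 ± 2.65 CPM in KO (SD, n = 3) and 32.5 ± 1.67 CPM in WT (n = 4), and Spn was higher (0.31 ± 0.08, edgeR adjusted p = 0.0431), at 46.2 ± 1.89 CPM in KO and 37.3 ± 3.42 CPM in WT. With WT libraries 1 and 2 as the only WT ones, Fgr gave -0.41 (edgeR adjusted p = 0.0316) and Spn 0.43 (edgeR adjusted p = 0.00297). Of all tested genes, 4.59% passed in CM and 5.32% in control medium. Of the 25 adaptors and kinases, 1 was higher and 2 lower in KO in CM, and 1 higher and 1 lower in control medium. Of the 11 tested phosphatases and negative regulators, 0 passed in CM and 2 were lower in KO in control medium. Neutrophil markers, mostly Mmp8, summed to 86.9 to 94.0 CPM in KO in CM, 23.7 to 24.8 CPM in KO in control medium, 45.1 to 49.7 CPM in WT in CM and 13.6 to 17.3 CPM in WT in control medium, while Ly6g, which defines neutrophils, had 8 counts in all 14 libraries together. Their part in the receptor values was not tested.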

How the data were processed

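RNA was measured in 14 libraries of 4 groups. The authors deposited raw counts per exon of transcript models, aligned to mm10 with HISAT2 per the submitters' processing notes; the counting tool, annotation and strand setting are not given in the sources used here. The table has 427386 exon entries. Repeats within a gene (196941 entries, 48.6% of the counts) were dropped before summing per gene. Reads spanning exons may count in each.

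The main test was the quasi-likelihood F test of edgeR 4.0.16 (R 4.3.3), with TMM scaling and filterByExpr (minimum count 10, minimum total 15), in 1 fit of 4 group means with 5 contrasts. P-values were Benjamini-Hochberg adjusted over 13311 genes and called below 0.05. The SE is approximate (log2 change over the root of F). The fit was also run on simulated counts, drawn without the split between the WT libraries, so that run cannot speak to calls under the split. DESeq2 1.42.0, other filters and scalings, the replicate block and leaving out each library were alternatives.

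The members and lists were chosen with earlier results of these data known. Members called and with 1 CPM or more in a group are named with values; others with changes or counts. Of each partner list the 4 genes with the smallest p are named. Protein sequences were not used here, so roles are background knowledge, and the planned description of protein motifs was not run. Coordinates are RefSeq (GRCm38.p6).

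WT libraries of the same number correlated in their deviations from the group means (r from 0.33 to 0.47), above the limit for pairing, but so did other pairs within libraries 1 and 2 (0.31 to 0.35) and within 3 and 4 (0.37 to 0.46). KO libraries of the same number did not (-0.04 to 0.05). The pairing is inferred from these values only. For the medium changes and the interaction, the block was the replicate number within a genotype. For KO against WT it matched libraries of the same number across genotypes, which gave r from -0.1 to 0.12 in the same medium.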

Additional observations from a re-analysis of the deposited data

Results flagged for a closer look

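Lilrb4a, the inhibitory receptor gp49B, had 642.6 CPM in WT control library 2, apart from the other 3 WT control libraries at 706.1 to 717.9 CPM. The gap was 0.844 of the group's range, above Dixon's 95% critical value of 0.829 for 4 samples. This was the only such case among 50 groups of 4 libraries looked at, and chance gives about 1 in 20.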

How the results depend on the processing

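Under no alternative did a result reverse its direction past the threshold. The number of genes called for KO in CM was 611, against 1219 by DESeq2 and 923 with the inferred batch as a term; members called were 2, against 4 under either. For KO in control medium 708 genes were called, against 1501 by DESeq2, 283 in a fit of the compared groups alone and 384 on the most-counted exon. Members called there were 5, against 10 by DESeq2, 3 with the compared groups alone, 2 on the most-counted exon, 10 with the batch term, 8 against WT libraries 1 and 2 only, and 1 with the Pira genes and Pirb merged, an alternative added after the data were seen. For the interaction 0 genes were called, against 84 by DESeq2, 205 with the replicate block, 164 with the batch term and 11 with WT libraries 1 and 2 only; members were 0, against 1 by DESeq2, 1 with the block and 2 with the batch term. Some of these fits held fewer groups, exons or libraries, while DESeq2, the batch term and the replicate block used all of them. The cause of the differences was not tested.

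With 1 library left out, genes called ranged from 4498 to 4949 for CM in WT, 4297 to 5218 for CM in KO, 217 to 721 for KO in CM, 224 to 1769 for KO in control medium and 0 to 2 for the interaction. Members called ranged from 22 to 28, 25 to 27, 0 to 2, 2 to 9 and 0 to 0 in the same order. KO in CM gave 307, 363 and 217 genes without KO CM library 1, 2 and 3, and 292 and 259 without WT CM library 3 and 4. KO in control medium gave 282, 224 and 244 without KO control library 1, 2 and 3, and 1769, 285 and 330 without WT control library 2, 3 and 4. Scaling by library totals alone gave 1941 genes higher and 3624 lower for CM in KO, against 2659 and 2418, and 1957 and 3501 for CM in WT, against 2570 and 2390; for KO in control medium it gave 605 and 182, against 375 and 333. The replicate block changed no member's call beyond those named above. Merging genes by protein identity was not run. Counts under 100 in at least 1 group limit Siglech, Trem1, Cd300c, Cd300e, Siglece and Treml4.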
